A study of Mus musculus with 8 samples.

Results

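Ang5 and the other angiogenin-type ribonucleases of the mouse were followed in whole lungs of mice with stabilized or knocked-out beta-catenin. Members were the probe sets whose annotated symbols are Ang, Ang with a number, or Rnase with a number. The family was selected on the measured difference of Ang5 between these groups, and the other members entered by symbol alone. Of 34760 probe sets on the array, 12 met the rule, and they name 13 of the 21334 genes in the annotation. A total of 11 probe sets carry 1 symbol, and 1 is shared by Rnase4 and Ang, whose separate levels it cannot give. No member gene has more than 1 probe set. RefSeq (assembly GRCm38.p6) lists all 13 genes on chromosome 14.

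The samples are 8 lungs, taken without treatment on postnatal day 21, with 4 mice in the group labelled beta-catenin stabilized and 4 in the group labelled beta-catenin knockout. Total RNA was hybridised to Affymetrix arrays. Beta-catenin (Ctnnb1) carries canonical Wnt signals to the nucleus and also links cadherins to the cytoskeleton. The labels name no Cre driver, no altered exons, no background strain and no unmodified control lungs, so a difference gives the contrast between the modified groups and not a departure from normal lung. In bulk tissue, fewer cells of a type and less RNA per cell cannot be told apart.

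The RNase A superfamily consists of small secreted ribonucleases, held together by disulfide bonds, that cut RNA after pyrimidines. Angiogenin is named for its stimulation of vessel growth. It is taken up by cells, acts in the nucleolus on ribosomal RNA transcription, and under stress cuts transfer RNAs in the anticodon loop. A cytosolic inhibitor, encoded by Rnh1, binds these enzymes tightly. In rodents the angiogenin gene has been duplicated several times among the genes of the eosinophil-associated ribonucleases, and Ang5 and Ang6 are little-studied products of that expansion.

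RefSeq promoter windows, each running from 250 bases before to 50 bases after an annotated start in GRCm38.p6, were found for 12 of the 13 genes, in 16 windows. They are shown because the windows of Ang5 and Ang6 are the same sequence, while their probe sets did not behave alike. All 300 bases of Ang6 were identical to those of Ang5, on the opposite strand of the chromosome. The Ang4 window was 89.8% identical to Ang5 over 283 aligned bases. Every other member window gave 51.2% to 63.4% over its aligned bases. Rnase4 and Ang are annotated with 1 shared start and hence 1 shared window, besides a second start of Rnase4. The parts upstream of the start are printed 5′ to 3′ on the strand of the gene, with the letters TATATA in capitals. They lie at chr14:43956819-43957068 (plus strand) for Ang5, chr14:51773591-51773840 (minus strand) for Ang4 and chr14:51090827-51091076 (plus strand) for Ang and Rnase4.
Ang5 (Ang6 has the same letters at chr14:44006419-44006668, minus strand): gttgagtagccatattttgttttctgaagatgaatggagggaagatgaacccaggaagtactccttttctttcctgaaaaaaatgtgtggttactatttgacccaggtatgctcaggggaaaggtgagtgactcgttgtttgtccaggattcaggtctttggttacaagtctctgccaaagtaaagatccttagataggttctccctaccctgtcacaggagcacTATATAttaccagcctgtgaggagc
Ang4: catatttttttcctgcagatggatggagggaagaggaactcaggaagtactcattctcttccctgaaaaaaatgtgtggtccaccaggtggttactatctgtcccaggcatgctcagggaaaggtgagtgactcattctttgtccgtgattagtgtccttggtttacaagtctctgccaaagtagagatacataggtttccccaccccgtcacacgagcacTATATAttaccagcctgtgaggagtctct
Ang and Rnase4, shared start: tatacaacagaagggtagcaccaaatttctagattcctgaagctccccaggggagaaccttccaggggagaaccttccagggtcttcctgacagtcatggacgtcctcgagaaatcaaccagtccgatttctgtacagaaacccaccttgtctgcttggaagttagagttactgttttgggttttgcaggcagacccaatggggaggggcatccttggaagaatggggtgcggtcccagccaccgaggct

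The motif TATATA, which reads the same on both strands, began 25 bases before the start in Ang5 and Ang6 and 29 bases before it in Ang4. It occurred in 5.67% of all 32851 windows of the table. In the other member windows it occurred only upstream of the second start of Rnase4. The letters CTTTGAA and CTTTGAT, which match the core bound by the TCF/LEF partners of beta-catenin, were searched on both strands. CTTTGAA was found in 5.14% of all windows, among the members in 1 window each of Rnase10 and Rnase4. CTTTGAT was found in 3.73% of all windows and in no member window. Neither is present in the Ang5 window. A match or its absence describes these letters only.

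**Figure D1:**
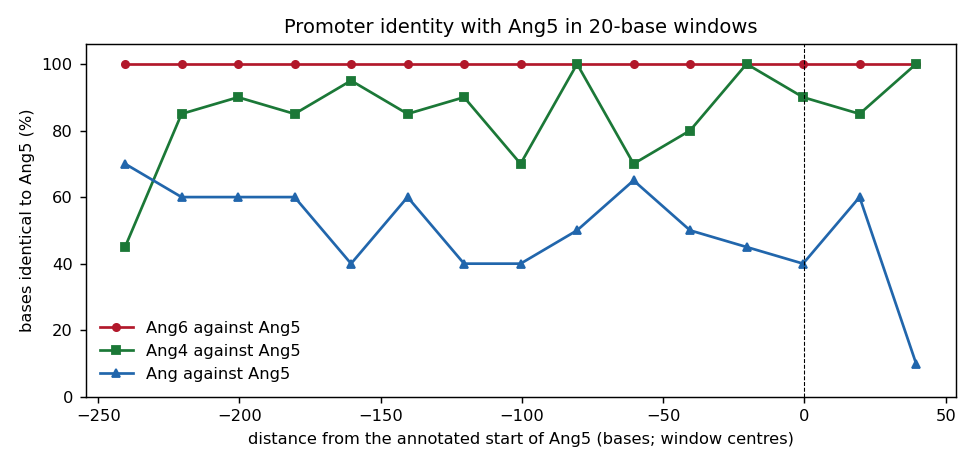
Percentage of bases identical to Ang5 (y axis) in successive 20-base windows placed by their distance in bases from the annotated start of Ang5 (x axis; the dashed line marks the start), for the promoters of Ang6, Ang4 and Ang after alignment to Ang5. The Ang6 line stays at 100% throughout, Ang4 lies between 45% and 100%, and Ang lies between 10% and 70%. Bases of Ang5 left without an aligned partner count here as not identical, unlike in the percentages over aligned bases in the text.

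Values below are log2 expression per probe set as deposited, on which 1 unit is a doubling, and differences are stabilized minus knockout with the moderated standard error (SE) of limma. Since the family was picked for this contrast, the members' differences are descriptions without p-values. Where 4 values of a group are listed, they run from replicate 1 to replicate 4. Levels of different probe sets are not compared, because probes differ in response. Of the 12 member probe sets, 9 had a mean over the 8 arrays under 5.99, the median over all probe sets, with values from 3.07 to 5.65. Such dim probe sets may hold little signal above background.

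Ang5 had the largest positive difference of any gene named by a single-symbol probe set. Its log2 level (probe set 10414260) was 7.47, 7.69, 7.45 and 7.18 across the stabilized lungs, against 4.86, 5.59, 5.37 and 5.08 across the knockout lungs. Every stabilized lung was high and every knockout lung low, and 1.58 log2 units separated the lowest stabilized from the highest knockout lung. The means were 7.44 ± 0.21 and 5.22 ± 0.32 (SD, n = 4 per group), a difference of 2.22 ± 0.17 (SE), or 4.66-fold. This ranked 1 among 19937 such genes and 2 among all probe sets, ranks that the choice of the gene already contains. The difference stayed between 2.10 and 2.34 when each array was left out in turn, the ends being the values without knockout replicate 1 and without knockout replicate 2.

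Ang6, whose promoter window matches that of Ang5 base for base, was level across the groups. Its log2 values (probe set 10419158) were 5.24, 5.40, 5.32 and 5.12 across the stabilized lungs, against 5.32, 5.33, 5.26 and 5.13 across the knockout lungs. The groups overlapped almost completely, with a difference of 0.01 ± 0.08 (SE, n = 4 per group). The Ang6 probe set, like those of Ang4 and Ang2, is among the dim ones, under 5.99. A level reading there may hold little signal above background. The annotation assigns the Ang5 and Ang6 probe sets to 1 gene each. Whether the probes of either also bind transcripts of the other, or of the Ang pseudogenes nearby, was not tested, since probe and transcript sequences were not used here.

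Ang4, an antimicrobial product of intestinal Paneth cells, did not follow Ang5 either. Its log2 values were 5.12, 4.96, 4.88 and 5.65 across the stabilized lungs, against 4.80, 5.18, 5.24 and 5.11 across the knockout lungs. One stabilized lung, replicate 4, lay above the rest, and the groups overlapped at a difference of 0.07 ± 0.17 (SE). Without single arrays and under the other settings the Ang4 difference ran from -0.09 to 0.16, so it has no settled sign. Ang2, another angiogenin of the duplicated cluster, lay at 4.93, 4.88, 5.01 and 4.87 across the stabilized lungs, against 5.33, 4.96, 4.72 and 4.97 across the knockout lungs. Knockout lungs spread on both sides of the stabilized lungs, with a difference of -0.07 ± 0.12 (SE).

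The probe set shared by Rnase4 and Ang covers the best-studied angiogenin and a ribonuclease with a strong preference for uridine. Its log2 values were 8.76, 8.89, 8.69 and 8.62 across the stabilized lungs, against 8.98, 8.94, 9.02 and 8.93 across the knockout lungs. All stabilized lungs lay below all knockout lungs, by a margin of only 0.04 between the nearest arrays. The difference was -0.23 ± 0.07 (SE, n = 4 per group), the opposite sign to Ang5, and ran from -0.29 to -0.19 over the alternative settings. Which of the genes contributed cannot be told apart from this probe set.

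**Figure D2:**
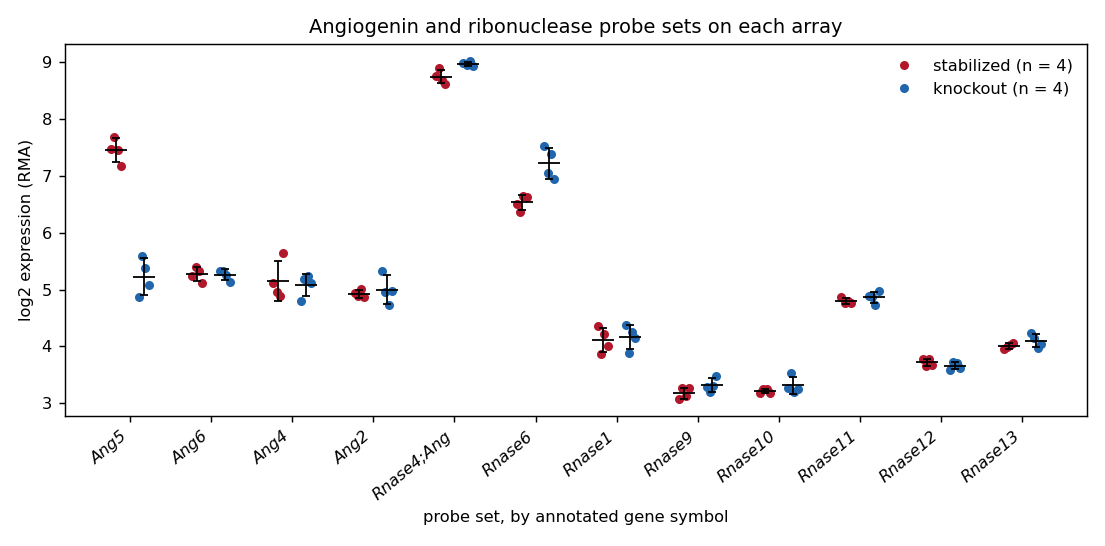
Log2 expression (y axis) of each of the 12 member probe sets (x axis) on every array, with 4 stabilized and 4 knockout lungs as points and bars for the group mean ± SD. The Ang5 groups are separated by 1.58 log2 units, Rnase6 and the shared Rnase4 and Ang probe set lie lower in stabilized lungs, and the groups of the other 9 probe sets overlap.

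Rnase6, an antimicrobial ribonuclease of myeloid cells, was the member with the next largest difference. Its log2 values were 6.50, 6.36, 6.65 and 6.62 across the stabilized lungs, against 7.52, 7.05, 7.38 and 6.94 across the knockout lungs. The groups did not overlap, with 0.29 between the highest stabilized and the lowest knockout lung. The difference was -0.69 ± 0.13 (SE), or 1.61-fold lower in stabilized lungs. Markers of B and T cells moved the same way, with 4 of 5 lower in stabilized lungs by limma (Benjamini-Hochberg adjusted p under 0.05) and 0 higher. The mean log2 level of these 5 markers was 5.77, 5.74, 5.97 and 5.77 across the stabilized lungs, against 7.44, 7.07, 7.16 and 6.78 across the knockout lungs. Knockout replicates 1 and 3 lay above replicates 2 and 4 for both Rnase6 and that mean. For the mean, replicate 3 at 7.16 was little above replicate 2 at 7.07. Of the 5 markers, Ms4a1, Cd3e and Cd8a had this order. Cd79a and Cd4 did not, and replicate 3 was their lowest knockout lung. The order with replicates 1 and 3 above 2 and 4 was thus not shared by all listed lymphocyte markers, nor was it particular to them. Across the knockout lungs Scgb3a1 of club cells was at 9.17, 8.51, 9.39 and 8.64, and the antimicrobial gene Ltf at 6.20, 5.70, 6.43 and 5.66. Bpifa1 of club cells had it too, while the other listed club markers, Scgb1a1, Scgb3a2, Cyp2f2 and Cbr2, did not. Scgb1a1, for example, was at 12.71, 12.87, 13.05 and 12.94. Xist in the knockout lungs had that order, at 10.55 and 10.42 in replicates 1 and 3 against 4.56 and 4.40 in 2 and 4. The stabilized lungs with high Xist, replicates 1 and 4, had Rnase6 at 6.50 and 6.62, against 6.36 and 6.65 in replicates 2 and 3. With the Xist level as a covariate the Rnase6 difference was -0.69 ± 0.11 (SE). Of 5 tissue macrophage markers 3 were called higher in stabilized lungs and 0 lower, with 5 at an unadjusted p under 0.05. Among these 5, Cd163 went the other way, at -0.40 ± 0.11 (SE, limma adjusted p = 0.08). Of 5 neutrophil markers 2 were called higher and 0 lower. Of 4 alveolar macrophage markers 0 were called by limma, with 0 at an unadjusted p under 0.05. The part of these cells in the Rnase6 difference was not tested.

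The remaining ribonucleases showed no separation. Rnase1, the secreted pancreatic-type enzyme also made by endothelium, lay between 3.87 and 4.38 over the 8 arrays, with a difference of -0.06 ± 0.13 (SE). Rnase9, Rnase10, Rnase11, Rnase12 and Rnase13, known mainly from the male reproductive tract, had differences between -0.14 and 0.06, and their values lay between 3.07 and 4.97. Rnase9 was at 3.18 ± 0.10 in stabilized and 3.32 ± 0.11 in knockout lungs, and Rnase12 at 3.72 ± 0.07 and 3.66 ± 0.06 (SD, n = 4 per group). In all 9 of the probe sets outside Ang5, Rnase6 and the shared probe set the groups overlapped, at differences from -0.14 to 0.07.

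Over the whole array, 1535 of 34760 probe sets (4.42%) were called at a limma Benjamini-Hochberg adjusted p under 0.05, of which 629 (1.81% of all) were higher and 906 (2.61%) lower in stabilized lungs. After each array was centred on its median, 56.2% of the called probe sets were higher, against 41% without centring. Among the 12 members, 2 were called, Ang5 higher and Rnase6 lower. The count was 1 without stabilized replicate 1, stabilized replicate 2 or knockout replicate 3, where Rnase6 was no longer called. After repeated quantile normalization the shared Rnase4 and Ang probe set was called as well. The groups did not overlap in 3 members and in 13.8% of all probe sets. The median difference was -0.07 over the members and -0.01 over all probe sets. Since this contrast chose the family, nothing is read from these counts.

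Label checks bear on all of these values. Ctnnb1 differed by 0.09 ± 0.06 (SE, limma adjusted p = 0.48), a value that does not test the genotypes, since the altered exons are not given. All mice are labelled male, yet Xist was at 10.36 to 10.59 in stabilized replicates 1 and 4 and knockout replicates 1 and 3, against 4.18 to 4.62 elsewhere, and Y-linked Kdm5d was at 3.74 to 4.00 in those 4 arrays and 6.71 to 7.21 elsewhere. Each group holds 2 arrays of either kind. Ang5 was at 7.47 and 7.18 in the stabilized lungs with Xist and at 7.69 and 7.45 in those without it, and at 4.86 and 5.37 against 5.59 and 5.08 in the knockout lungs. With the Xist level as a covariate its difference was 2.22 ± 0.16 (SE). The 7 markers of lung, Sftpc and Scgb1a1 among them, had a mean log2 level of 11.09 to 11.28 on all arrays, and 1 of them, Scgb1a1 of club cells, was lower in stabilized lungs.

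Cell type markers that moved between the groups stand beside the Ang5 difference as follows. Of 5 alveolar type 2 markers 3 were higher in stabilized lungs and 0 lower, with a mean log2 level of 11.43 to 11.62 against 11.21 to 11.28. Of 6 club cell markers 5 were lower and 0 higher, at 9.03 to 9.40 against 10.21 to 10.85, and of 5 ciliated cell markers 5 were lower, at 5.96 to 6.12 against 6.97 to 7.13. Of 5 endothelial markers 0 were called by limma, with 2 at an unadjusted p under 0.05 and mean log2 levels of 10.47 to 10.55 against 10.35 to 10.45. The part of these cell types in the Ang5 difference was not tested. Tissues in which angiogenin-type ribonucleases are abundant gave no called marker, with 0 of 4 liver, 0 of 4 exocrine pancreas and 0 of 4 intestinal Paneth and goblet markers past the limma threshold, and 0, 1 and 1 at an unadjusted p under 0.05. Alb, the albumin gene of liver, was at 8.08 in stabilized replicate 2 and at 4.09 to 4.64 on the other arrays. The liver markers Fgb and Ttr were also highest in that lung, by less. Fgb was at 5.22 against 4.53 to 4.87 elsewhere, and Ttr at 4.57 against 4.14 to 4.29. Apoa1 was at 5.96 there, a level that knockout lungs also reached. Stabilized replicate 2 also had the highest Ang5 value, and without it the Ang5 difference was 2.14 ± 0.17 (SE). The part of liver RNA in the Ang5 value was not tested.

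Measured genes outside the family, around the members on the chromosome, are described by their differences. That none of them rose more than Ang5 is already contained in the choice of Ang5. The RefSeq order places 2 pseudogenes of the eosinophil ribonuclease type between Ang5 and Ang6. Among the 67 genes within 5 positions of any member, 17 outside the family had a single-symbol probe set, and their differences ran from -0.48 to 0.99 with a median of 0.03. By limma 0 of them were called over all probe sets, with 7 at an unadjusted p under 0.05. Here and elsewhere, the share of all probe sets at that unadjusted cut was not counted, so nothing is read from such counts. In a fit to annotated probe sets only, 2 neighbours were called, beside 2063 of all 22961 fitted. With 1 probe set per gene 4 were called, beside 1917 of 19937. None of the 17 lies within 5 positions of Ang5 on either side, where Ang6 was the nearest gene measured here.

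Rnase2a, an eosinophil-associated ribonuclease within the cluster, was the neighbour with the largest difference. Its log2 values were 5.93, 5.26, 5.56 and 5.32 across the stabilized lungs, against 5.28, 4.31, 4.10 and 4.43 across the knockout lungs. Knockout replicate 1 reached into the stabilized range, and the difference of 0.99 ± 0.25 (SE) missed the threshold (limma adjusted p = 0.067). Over 15 alternatives its adjusted p ran from 0.0086, without knockout replicate 1, to 0.17 by limma, and 4 of them called it. Of 4 eosinophil markers 1 was lower and 0 higher, at a mean log2 level of 4.24 to 4.40 in stabilized and 4.49 to 4.57 in knockout lungs. The zinc transporter gene Slc39a2 differed by -0.48 ± 0.13 and Ndrg2 by -0.33 ± 0.10 (SE, limma adjusted p = 0.083 and 0.12). The Slc39a2 groups in effect touched, with a gap of 5e-06, and the Ndrg2 groups were 0.06 apart. Of the 11 listed relatives of the RNase A superfamily outside the rule, 4 were measured and 0 were called by limma, with 2 at an unadjusted p under 0.05.

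**Figure D3:**
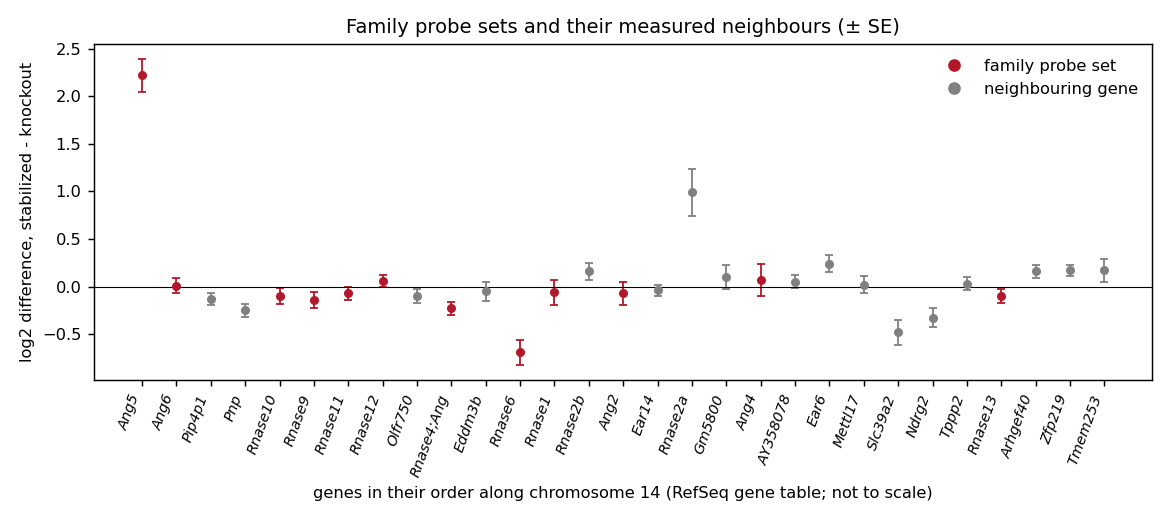
Log2 difference, stabilized minus knockout, with its SE (y axis) for member probe sets and for their measured neighbours, in gene order along chromosome 14 and not to scale (x axis). Ang5 stands at 2.22 beside Ang6 at 0.01, Rnase2a is at 0.99, and the other points lie between -0.69 and 0.24.

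Genes with roles around the secreted ribonucleases were fitted by the same limma model over all probe sets, with 52 of 63 listed genes measured in 7 lists. The lists were chosen with earlier results of these data known, so their adjusted p-values serve as description. Of the 52 genes, 4 were higher, 4 lower and 44 did not pass, while 4.42% of all probe sets were called. With 1 probe set per gene, 13 listed genes were called, beside 1917 of all 19937 genes. Listed genes are represented by their brightest probe sets, so nothing is read from these counts. Rnh1, the ribonuclease inhibitor, was at 8.56, 8.57, 8.54 and 8.56 across the stabilized lungs, against 8.49, 8.58, 8.60 and 8.37 across the knockout lungs. The groups overlapped, with a difference of 0.05 ± 0.07 (SE, limma adjusted p = 0.74). Plxnb2, a cell surface receptor for angiogenin, was at 9.76 in stabilized and 9.56 in knockout lungs, without overlap (0.20 ± 0.06, SE, limma adjusted p = 0.11). Egfr, the epidermal growth factor receptor, which angiogenin has been reported to bind, was at 8.17, 8.14, 8.21 and 8.24 across the stabilized lungs, against 7.87, 7.91, 7.78 and 8.07 across the knockout lungs. Its groups did not overlap, and its limma adjusted p of 0.064 ran from 0.025 to 0.16 over 16 alternatives, 6 of which called it. Epha4, an ephrin receptor, differed by -0.12 ± 0.07 (SE, limma adjusted p = 0.42).

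Follistatin, encoded by Fst, an activin antagonist also reported to bind angiogenin, was the partner that passed the test. Its log2 values were 6.89, 6.76, 6.74 and 6.84 across the stabilized lungs, against 8.18, 7.84, 7.44 and 7.59 across the knockout lungs. Every stabilized lung was low. Fst fell by 0.96 ± 0.14 (SE, limma adjusted p = 0.0075), and the adjusted p ran from 0.00053 to 0.028 over 16 alternatives. The list of the inhibitor, receptors and partners thus held 1 lower gene of 5, with a median difference of 0.05.

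Genes of the processes that angiogenin acts on inside cells had median differences near 0. Of 8 measured genes of transfer RNA cleavage and protection, 1 rose and 0 fell, with a median difference of 0.04. The one that rose was Eif4a1, a helicase of translation initiation, at 0.34 ± 0.07 (SE, limma adjusted p = 0.039). Its call was lost in 7 of the 8 fits without 1 array, with a highest adjusted p of 0.12, and also under the replicate block, after repeated quantile normalization and with the Xist covariate (limma adjusted p = 0.056, 0.052 and 0.062). Trdmt1 and Nsun2, methyltransferases that protect transfer RNAs, differed by -0.06 ± 0.10 and 0.03 ± 0.06 (SE). Of 10 genes of ribosomal RNA transcription 0 were called by limma, with 2 at an unadjusted p under 0.05 and a median of 0.05. Ubtf, a transcription factor of RNA polymerase I, differed by 0.07 ± 0.06, and Ncl, the nucleolin gene, by 0.02 ± 0.09 (SE).

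Ribonucleases of other folds gave 1 lower gene of 4 measured, with a median of -0.16. Rnaseh2c, a subunit of the enzyme that removes ribonucleotides from DNA, fell by 0.35 ± 0.06 (SE, limma adjusted p = 0.013). Its groups did not overlap, at 6.98 ± 0.07 with stabilized and 7.34 ± 0.05 with knocked-out beta-catenin (SD, n = 4 per group). With the replicate number as a block its adjusted p was 0.064, and over its 16 alternatives it ran from 0.0034 to 0.064 by limma.

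Other angiogenic ligands and receptors were tested because angiogenin is named for vessel growth. In the list of 14, 3 genes rose, 0 fell and 11 stayed short of the threshold. The median difference was 0.13, against -0.01 over all probe sets and 0.03 with dim probe sets left out. The mean log2 level of the list was 8.67 to 8.94 on the arrays. Vegfc, a ligand of lymphatic vessel growth, was at 7.64, 7.58, 7.39 and 7.64 across the stabilized lungs, against 6.70, 6.92, 6.96 and 7.16 across the knockout lungs. All stabilized lungs were above all knockout lungs, and Vegfc rose by 0.63 ± 0.10 (SE, limma adjusted p = 0.011). Vegfd, which signals through the same receptor, rose by 0.41 ± 0.09, and that receptor, Flt4, by 0.33 ± 0.07 (SE, limma adjusted p = 0.036 and 0.033). The calls of Vegfd and Flt4 were each lost in 7 of the 8 fits without 1 array, with a highest adjusted p of 0.11 and 0.093, and under the replicate block (adjusted p = 0.095 and 0.10). Vegfa, the main ligand of blood vessel growth, differed by 0.10 ± 0.05, and its receptor Kdr by 0.13 ± 0.06 (SE).

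**Figure D4:**
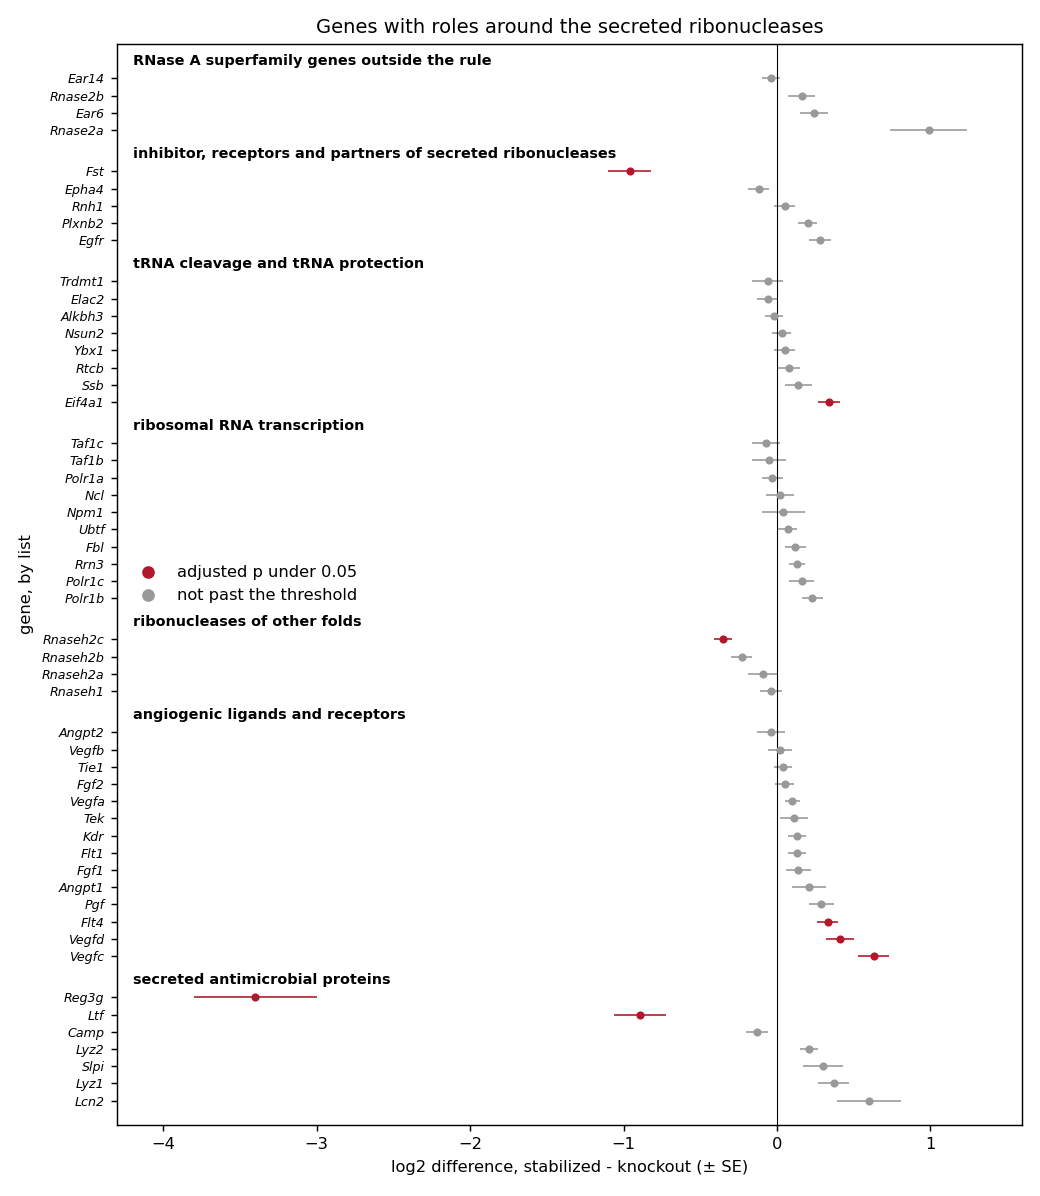
Log2 difference, stabilized minus knockout, with its SE (x axis) for the 52 measured genes of 7 lists (y axis), coloured where the limma adjusted p was under 0.05. The coloured genes are 4 with positive differences, the largest 0.63 for Vegfc, and 4 with negative ones, the largest -3.40 for Reg3g.

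Secreted antimicrobial proteins, a role described for several ribonucleases of the family, went different ways. In the list of 7, the 2 called genes fell and 5 stayed short of the threshold, while the median difference was 0.21, of the opposite sign. Reg3g, a lectin directed at Gram-positive bacteria, fell by 3.40 ± 0.40 (SE, limma adjusted p = 0.002). Ltf, the lactoferrin gene, fell by 0.89 ± 0.17 (SE, limma adjusted p = 0.024), a call lost in 4 of the 8 fits without 1 array (highest adjusted p = 0.077) and under the replicate block (adjusted p = 0.074). Lyz1 and Lyz2, the lysozyme genes, differed by 0.37 ± 0.10 and 0.21 ± 0.06 (SE, limma adjusted p = 0.084 and 0.079).

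Within groups, the small variation of Ang5 from lung to lung was compared with that of 19926 other genes, each by its brightest single-symbol probe set, after group means were removed. The 6 genes with the highest Pearson correlation over the 8 arrays were Tff3 (0.967), Dsn1 (0.956), Fam76b (0.953), Rrp8 (0.952), Zfp583 (0.938) and Lmbrd1 (0.937), and 27 genes reached 0.9. The arrays share their processing and the removal of group means leaves few degrees of freedom, so these values only describe the 8 arrays. None of the 6 shared the Ang5 difference: the largest was 0.17 ± 0.07 (SE) for Dsn1, a kinetochore protein, and Tff3, a trefoil peptide of mucous cells, differed by -0.03 ± 0.07 (SE).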

How the data were processed

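Per the submitters' processing notes, the authors used RMA and the affy package, without versions, and the deposited values are log2 expression, 1 per probe set and array. RMA usually subtracts a modelled background, quantile-normalizes and summarises by median polish. The probes' genome build is not given in the sources used here. Array medians lay between 5.97 and 6.03. Arrays have no read depth, and the 4 per group limit the precision. No array was a copy of another: the closest pair had a root-mean-square difference of 0.251.

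Symbols came from the platform annotation: 21640 probe sets had 1 symbol, 1321 several and 11799 no row there. A listed gene was represented by its single-symbol probe set with the highest mean. All 34760 probe sets were fitted without a filter (limma 3.58.1, R 4.3.3; lmFit, eBayes, Benjamini-Hochberg adjustment, threshold 0.05), on 8 arrays without covariate; the prior added 2.94 degrees of freedom. The script was tested on simulated data. p-values measure the spread between the mice labelled as biological replicates.

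Named genes were all member probe sets, genes of the lists, markers and neighbours within 5 positions, the 6 genes most like Ang5, and Ctnnb1, Xist and Kdm5d. Alb and the other examples were singled out after their values were seen. Members and lists were chosen with earlier results of these data known. Alternatives covered scaling, dim probe sets, the prior, the features fitted, a replicate block, an Xist covariate and each array left out; the fit to annotated probe sets was added after the data were seen. Promoters were aligned globally, end gaps free (Biopython). Over all probe sets, same-numbered arrays showed little sign of pairing, as their deviations correlated at 0.0106 to 0.0395. This cannot exclude pairing in single probe sets. With the replicate block the SE fell from 0.17 to 0.11 for Ang5 and from 0.13 to 0.06 for Rnase1, while fewer probe sets were called over the whole array.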

Additional observations from a re-analysis of the deposited data

Results flagged for a closer look

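Of 154 groups of 4 arrays, from 77 probe sets of members, listed genes and neighbours, 7 held 1 array far from the other three, and chance alone flags about 1 in 20 such groups. Among the members this was Rnase10, at 3.54 in knockout replicate 2 against 3.20 to 3.26 in the other knockout lungs. In stabilized replicate 3, Eif4a1 was at 10.99 against 11.17 to 11.19 and Angpt2 at 6.70 against 7.04 to 7.07 in the rest of the group. In stabilized replicate 4, Rrn3 was at 8.21 against 8.27 to 8.28 and Fgf1 at 9.45 against 9.69 to 9.73. Vegfb was at 7.47 in stabilized replicate 2 against 7.71 to 7.74, and the neighbour Olfr750 at 6.16 in knockout replicate 3 against 6.27 to 6.29.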

How the results depend on the processing

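The Ang5 difference kept its sign and stayed within 1 replicate SD of the reported value under all 16 alternatives (2.10 to 2.34), and the other members also stayed within 1 SD under each alternative that kept their probe set. Differences near 0 changed sign when single arrays were left out: Ang6 ran from -0.03 to 0.06, Rnase1 from -0.15 to 0.02, Ang2 from -0.16 to 0.04 and Ang4 from -0.09 to 0.16. The dim filter removed 9 members, and the fit with 1 probe set per gene removed the shared Rnase4 and Ang probe set. Among the members 1 to 2 were called when single arrays were left out. Over all probe sets 780 to 1202 were called without 1 array, with 780 without stabilized replicate 1, 963 without knockout replicate 2 and 822 without knockout replicate 3. With the replicate number as a block 879 were called over all probe sets and 4 among the listed genes, 3 of them also reported. The samples share only these numbers, and 3 of 8 arrays correlated best with their own number. Of the listed genes 8 were called as reported, 13 with 1 probe set per gene and 13 among annotated probe sets only; in both fits these include the 8 reported, with Egfr, Lyz1, Lyz2, Pgf and Rnase2a besides, and fewer features were tested. Without 1 array 4 to 7 listed genes were called: 4 without stabilized replicate 1, 5 without stabilized replicate 2 or knockout replicate 1, 2 or 3. The Rnh1 difference turned to -0.0026 after repeated quantile normalization; the cause was not tested. Signal near background limits what the dim members can show.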
